A study of Rattus norvegicus with 23 samples.

Results

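The rat mitochondrial chromosome carries 37 genes, and all 37 were members of the set described here. They were chosen as every row of the deposited count table whose chromosome was the mitochondrial one (MT), 37 of 30562 genes. By the table's biotypes 13 encode proteins, 2 encode ribosomal RNAs and 22 encode transfer RNAs. The files name the 13 protein-coding genes (Mt-nd1 to Mt-atp8) and give the RNA genes only clone-based names (AY172581 with a suffix), which are used here as they stand.

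The 23 bulk libraries, all with the same batch label, were made from poly(A)-selected RNA of female Wistar rat femora. The 4 groups of the metabolic osteoporosis model (MetOP), in which rats received a diet rich in fat and L-NAME (a blocker of nitric oxide synthesis), were combination (semaglutide and PYY, n = 5), semaglutide (n = 5), PYY (n = 4) and MetOP saline (n = 5). The healthy controls (n = 4) had titles naming a standard diet, saline and oLN, an abbreviation the labels leave unexplained. Titles of all 19 MetOP libraries also read lfd after hfd, so the diet at sampling is not known. Diet and L-NAME went together in the MetOP groups, so their parts in any difference from healthy control cannot be told apart. Treatment labels of the PYY libraries read PYY3-36, PYY3-37, PYY3-38 and PYY3-39, and the group rests on their shared title. Semaglutide is a drug that mimics the incretin hormone GLP-1, and PYY3-36 is a satiety peptide released by the gut. Libraries are named by group and library name. The numbers of the MetOP libraries (A215 to A320) lie apart from those of the healthy controls (A387 to A392), and the labels do not say whether the numbers mark a difference in handling. Ages and doses are not stated in the labels. Whether each library is a separate animal is not stated, so a p-value here covers the spread among these samples, which may be technical.

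The proteins encoded in mitochondrial DNA are core subunits of respiratory complexes I, III, IV and V, which are completed by subunits from nuclear genes. Both strands are transcribed into long precursors, from which tRNAs are cut out to release the mRNAs and rRNAs between them. Mature mammalian mitochondrial mRNAs carry short poly(A) tails, and ND4L with ND4, and ATP8 with ATP6, are read from shared mRNAs. The messages are abundant in cells that respire heavily, such as muscle fibres, and mature red cells have lost their mitochondria.

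Library totals ran from 19.25 to 40.65 M counts with a median of 25.9 M, of which the other genes kept 4.28 to 16.1 M. A gene without a count could hold up to 3 counts, 0.0738 to 0.156 counts per M counts (CPM) of the library total, and such floors cover counting error only. The femur label was borne out by bone markers in all 23 libraries: Col1a1, the main bone collagen chain, had 74.3 to 3776 CPM (median 412), Bglap (osteocalcin) 6.15 to 145 CPM and Ctsk, the osteoclast protease, a median of 42.4 and a highest of 614 CPM. Acta1, the actin of skeletal muscle, was higher than any of them at a median of 6568 CPM (479 to 17838), and Hbb, a haemoglobin chain, had a median of 4113 CPM. In combination A320 and PYY A216, muscle fibre markers were 1.29% and 2.45% of the other counts, against 9.39 to 26.3% in the other 21 libraries. Some results are also given without these 2 libraries, and others may lean on them. In bulk tissue, fewer cells of a type and less RNA per cell cannot be told apart.

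Per length, the mRNAs differed in level by more than 100-fold between genes of the same library. Levels between genes are compared as counts per kilobase of gene per M counts, given as the median over the 23 libraries with the lowest and highest. Mt-atp6, a subunit of the proton channel of ATP synthase, was at the top with 128550 (83821 to 168909). The 3 core subunits of cytochrome c oxidase followed, with Mt-co3 at 115616 (71922 to 159561), Mt-co1 at 110420 (79945 to 140496) and Mt-co2 at 95656 (56827 to 132224). The ranges of these 4 genes overlap. In each of the 23 libraries, all the same, Mt-atp6 lay above the other 3 genes and Mt-co2 below them, while Mt-co3 and Mt-co1 changed places between libraries. Mt-cyb, the haem-bearing subunit of complex III, had a median of 49359. The complex I subunits spread over a wide range, from 47649 for Mt-nd2, 43335 for Mt-nd1 and 35846 for Mt-nd4, through 21600 for Mt-nd3 and 19230 for Mt-nd4l, down to 11482 for Mt-nd5 and 4412 for Mt-nd6. Mt-nd6 is the one protein-coding gene on the minus strand of the table (positions 13543 to 14061 of MT, build mRatBN7.2), and it shares 23 bases with the 3′ end of Mt-nd5 (11736 to 13565). The labels' protocol describes preparation both with and without strand marking, so counts of overlapping and opposite-strand genes are uncertain.

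Mt-atp8, the other ATP synthase subunit, stood far below its partner. It had a median of 755 counts per kilobase per M (444 to 1194), and per length 0.412 to 0.875% of Mt-atp6 in single libraries. The 2 genes share 43 bases (Mt-atp8 at 7758 to 7961, Mt-atp6 at 7919 to 8599). How reads over such bases were counted is not stated. Mt-nd4l (9870 to 10166) and Mt-nd4 (10160 to 11537) share 7 bases.

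**Figure D1:**
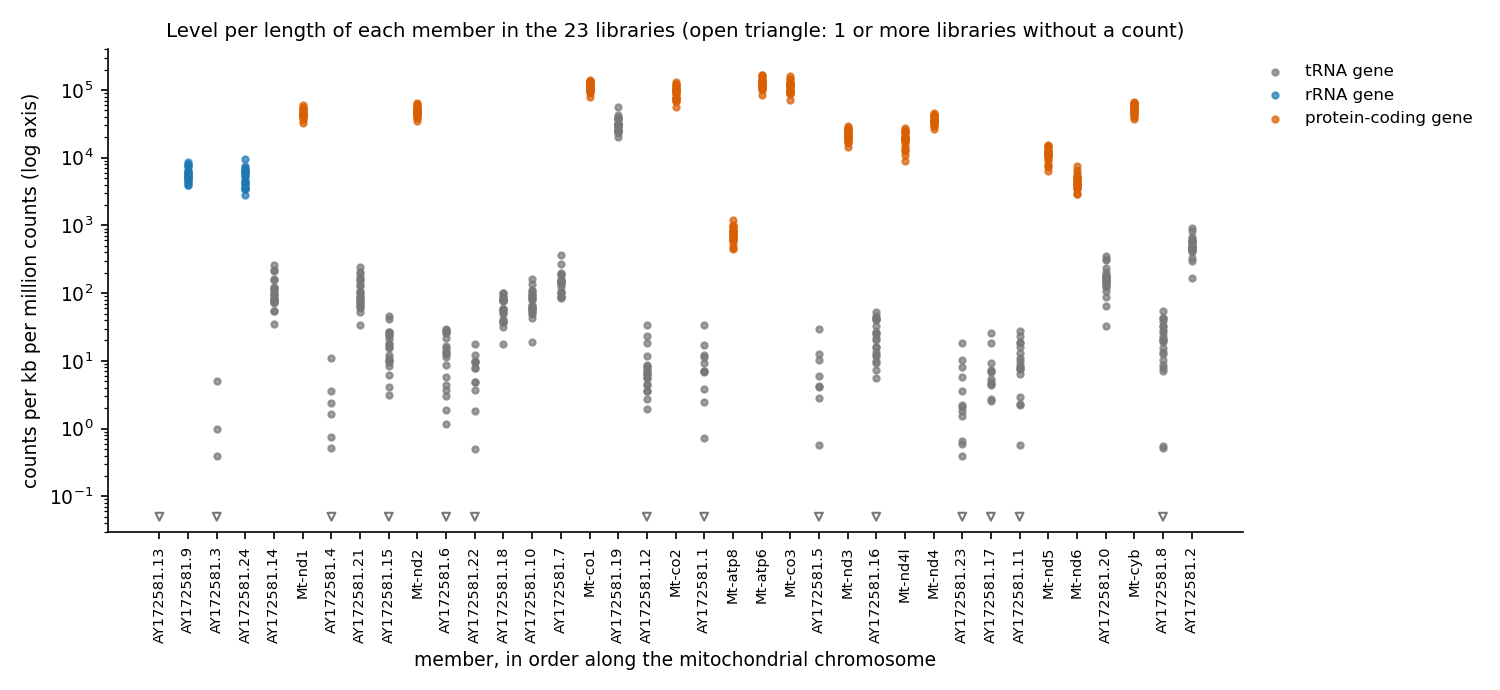
Counts per kilobase per M counts (log axis) for each of the 37 mitochondrially encoded genes, in their order along the chromosome, with 1 point per library and colour by biotype. Open triangles mark genes without a count in 1 or more of the 23 libraries. AY172581.19, at a median of 30748, is the one tRNA gene at the level of mRNAs such as Mt-nd4 (35846) and Mt-nd3 (21600). The other tRNA genes lie below all mRNAs except Mt-atp8, the lowest mRNA at a median of 755.

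The RNA genes were a small part of the set in every library. Protein-coding genes held 96.9 to 98.2% of the mitochondrially encoded counts (median 97.7%), rRNA genes 1.49 to 2.82% (median 2.04%) and tRNA genes 0.218 to 0.489% (median 0.321%). The selection of poly(A) RNA precedes these shares, so they do not stand for the makeup of total mitochondrial RNA. Over all libraries, 26.1% of the mitochondrially encoded counts came from Mt-co1, 13.3% from Mt-co3, 12.9% from Mt-atp6, 0.347% from Mt-nd6 and 0.0229% from Mt-atp8. Per length the shorter rRNA gene, AY172581.9 (positions 68 to 1025), had a median of 5341 counts per kilobase per M and the longer, AY172581.24 (1094 to 2664), 5225, both between Mt-nd5 and Mt-nd6.

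A single gene, AY172581.19, gave 96.1% of all tRNA gene counts. It lies on the minus strand at positions 6865 to 6933, and its last bases cover the final 3 bases of Mt-co1 on the other strand. Its median level of 30748 counts per kilobase per M was above that of Mt-nd3, though counts of opposite-strand genes are uncertain, as stated above. The next tRNA gene, AY172581.2, had a median of 480. The 14 tRNA genes on the plus strand had 9460 counts in all libraries together, and 4 of them had fewer than 100 counts each. AY172581.13 had none, AY172581.3 had 13 and AY172581.4 had 35 counts, and these 3 failed the filter on low counts, so 34 of 37 members were tested. A count was present in every library for 23 members, 8 of them tRNA genes. AY172581.19 and Mt-nd6 together made up 98.4% of the counts of minus-strand members.

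The makeup of the set varied little between libraries for most mRNAs. As a share of the mitochondrially encoded counts, Mt-cyb had the lowest coefficient of variation over the 23 libraries, 3.19%, with Mt-atp6 at 4.05% and Mt-co1 at 4.09%. Among the mRNAs Mt-nd6 (27.1%), Mt-nd4l (21.9%) and Mt-nd5 (21.0%) varied most.

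The share of all counts taken by the 37 genes was high in all 5 groups and overlapped between them. It was 63.8, 46.1, 82.6, 72.7 and 70.1% in combination A248, A251, A253, A318 and A320. It was 58.9, 60.3, 67.4, 65.9 and 54.4% in semaglutide A238, A240, A241, A242 and A243, and 61.4, 74.9, 61.5 and 56.8% in PYY A215, A216, A219 and A220. It was 65.6, 74.7, 83.9, 69.8 and 82.2% in MetOP saline A224, A226, A229, A232 and A265, and 65.8, 56.0, 68.2 and 82.6% in healthy control A387, A389, A390 and A392. The highest single value was in MetOP saline and the lowest in combination, and the ranges of all 5 groups overlapped. Over the 5 groups 25.2% of the variance lay between groups (permutation test, p = 0.243, adjusted over 10 measures 0.757).

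In pairs of groups no difference passed the adjustment over 70 tests (10 measures, 7 pairs; two-sided exact permutation tests). The share was 61.4 ± 5.31% with semaglutide and 75.3 ± 7.83% in MetOP saline (SD, n = 5 each; difference -13.9 points, exact p = 0.0238, adjusted 0.556), and 3 of the 5 semaglutide libraries lay below all MetOP saline libraries. It was 63.6 ± 7.82% with PYY (n = 4; difference to MetOP saline -11.6 points, exact p = 0.0952, adjusted 0.891) and 67.05 ± 13.5% with the combination (n = 5; difference -8.20 points, exact p = 0.286, adjusted 0.891). Of the PYY libraries 3 of 4, all but A216 at 74.9%, lay below all MetOP saline libraries, as did 2 of 5 combination libraries. MetOP saline minus healthy control was 7.10 points, with the healthy controls at 68.2 ± 10.98% (n = 5 and 4, exact p = 0.286, adjusted 0.891). The smallest p these tests allow is 0.00794 with 5 against 5 libraries and 0.0159 with 5 against 4. The differences between drug groups had adjusted p = 0.891 each (exact permutation tests), and those of PYY changed sign without 1 library: combination minus PYY was 3.42 points and -0.464 without combination A253, and semaglutide minus PYY was -2.26 points and 1.49 without PYY A216.

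**Figure D2:**
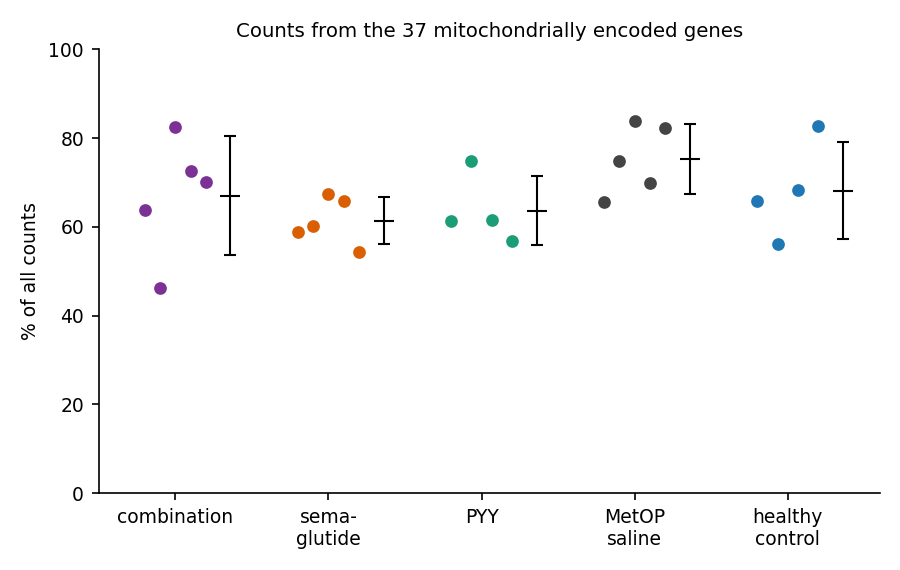
Percentage of all counts from the 37 mitochondrially encoded genes in each library (points) with the group mean ± SD (bars), for combination, semaglutide, PYY, MetOP saline and healthy control. All 5 semaglutide libraries lie between 54.4 and 67.4%, inside the range of the combination libraries, 46.1 to 82.6%.

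Among the classes and complexes, the share of complex V differed between the 5 groups. Mt-atp6 and Mt-atp8 together made up 13.7, 12.7, 13.4, 13.1 and 13.4% of the mitochondrially encoded protein-coding counts in combination, 12.7, 13.1, 13.4, 13.5 and 12.9% in semaglutide, 12.6, 12.2, 13.3 and 12.7% in PYY, 13.3, 12.5, 13.7, 13.3 and 12.9% in MetOP saline, and 13.7, 13.9, 14.3 and 14.3% in healthy control. The healthy control libraries were the high ones, and all 4 lay above all 5 MetOP saline libraries, though the lowest healthy value, 13.733%, was next to the highest MetOP saline value, 13.729%. Between-group differences took 58.0% of the variance (permutation test, p = 0.00251, adjusted over 10 measures 0.0251). The call was lost, at adjusted p of 0.0579 to 0.141 (permutation tests), when any of PYY A215, A216 or A220 or healthy control A389, A390 or A392 was left out. MetOP saline at 13.2 ± 0.470% and healthy control at 14.1 ± 0.282% gave exact p = 0.0159 (n = 5 and 4, adjusted over 70 tests 0.556), the smallest this pair allows.

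The other parts of the makeup did not pass the test over the 5 groups. Complex I subunits took 26.9 ± 2.52% in combination, 28.6 ± 2.26% in semaglutide, 29.0 ± 1.68% in PYY, 27.8 ± 1.63% in MetOP saline and 25.7 ± 0.515% in healthy control (permutation test, adjusted p = 0.685). Complex IV subunits took 50.5 ± 2.35, 49.2 ± 1.94, 49.3 ± 1.58, 50.0 ± 1.41 and 51.3 ± 0.561% in the same order of groups, and Mt-cyb of complex III 9.29 ± 0.269, 9.08 ± 0.419, 9.02 ± 0.0693, 9.08 ± 0.338 and 8.93 ± 0.168% (both adjusted p = 0.757, permutation tests). The rRNA share was 1.85% with semaglutide, the lowest group mean, and 2.17% in healthy control, the highest, while tRNA means ran from 0.313% in MetOP saline to 0.371% in healthy control. Their tests, and that of the minus-strand share, had adjusted p = 0.907 (permutation tests).

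Gene by gene, no member passed the test in any of 8 comparisons. The edgeR quasi-likelihood test was fitted on all 15271 tested genes and adjusted over them by Benjamini-Hochberg, with a threshold of 0.05. It called 0 of 34 members and 0% of all genes in every comparison except semaglutide against PYY, where it called 0 members and 0.00655% of all genes (1 gene). DESeq2 and limma voom called 0 members as well, while DESeq2 called 2 to 487 and voom 0 to 1 of all genes per comparison. Members with an unadjusted p under 0.05 in edgeR numbered 2 (5.88%) for combination, 1 (2.94%) for semaglutide and 5 (14.7%) for PYY against MetOP saline. For MetOP saline against healthy control they numbered 4 (11.8%). In all genes these numbers were 468 (3.06%), 1744 (11.4%), 740 (4.85%) and 1000 (6.55%). Between drug groups and in the interaction they numbered 0 to 2 members (0 to 5.88%), against 700 to 2575 genes (4.58 to 16.9%).

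The fitted log2 fold changes of the 15 protein-coding and rRNA members ran together within each comparison. Against MetOP saline all 15 were negative with each drug. The combination had a median of -0.50 (all genes 0.02), from Mt-nd6 at -0.74 ± 0.46 to AY172581.24 at -0.28 ± 0.58 (SE, edgeR adjusted p = 1 each). Semaglutide had a median of -0.83 (all genes -0.04), from Mt-nd3, a complex I subunit, at -0.94 ± 0.50 (edgeR adjusted p = 0.472) to Mt-nd4l at -0.75 ± 0.50 (0.565). PYY had a median of -1.10 (all genes -0.01), from Mt-atp6 at -1.15 ± 0.69 to Mt-nd5 at -0.89 ± 0.59 (edgeR adjusted p = 0.99992 each). These 3 comparisons share the MetOP saline libraries. Mt-atp6, for instance, had 93301 ± 48236 normalised CPM in combination, 73414 ± 15766 in semaglutide, 58898 ± 11868 in PYY and 130576 ± 57381 in MetOP saline (SD). The spread was wide in combination and MetOP saline and narrower in semaglutide and PYY, and that of MetOP saline enters all 3 comparisons.

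MetOP saline against healthy control gave 15 positive fold changes with a median of 0.27 (all genes 0.04). Mt-nd4l stood at 1.12 ± 0.55 (edgeR adjusted p = 0.769), Mt-nd3 at 0.07 ± 0.53 (0.995). Semaglutide over PYY had a median of 0.24, the combination 0.35 over semaglutide and 0.60 over PYY, with 15 of 15 positive in each. The interaction of the drugs, the departure of the combination from adding their separate log2 changes, had a median of 1.44, from 0.96 ± 0.81 for Mt-nd5 to 1.63 ± 0.85 for AY172581.24 (edgeR adjusted p = 0.9988 each). The size of these values hangs on the scaling, because the members hold most of the counts: with library totals alone the median of all genes shifted by 0.37, 0.68 and 0.33 in semaglutide, PYY and combination against MetOP saline, and those of the members became -0.28, -0.24 and -0.17, with 15, 15 and 14 of 15 negative. MetOP saline against healthy control then had 13 of 15 positive with a median of 0.17, and the median of semaglutide over PYY changed sign to -0.09. The interaction then had a median of 0.40 with 13 of 15 positive, and Mt-nd5 turned to -0.12. Positive values then numbered 12 of 15 for combination over semaglutide and 9 of 15 for combination over PYY.

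**Figure D3:**
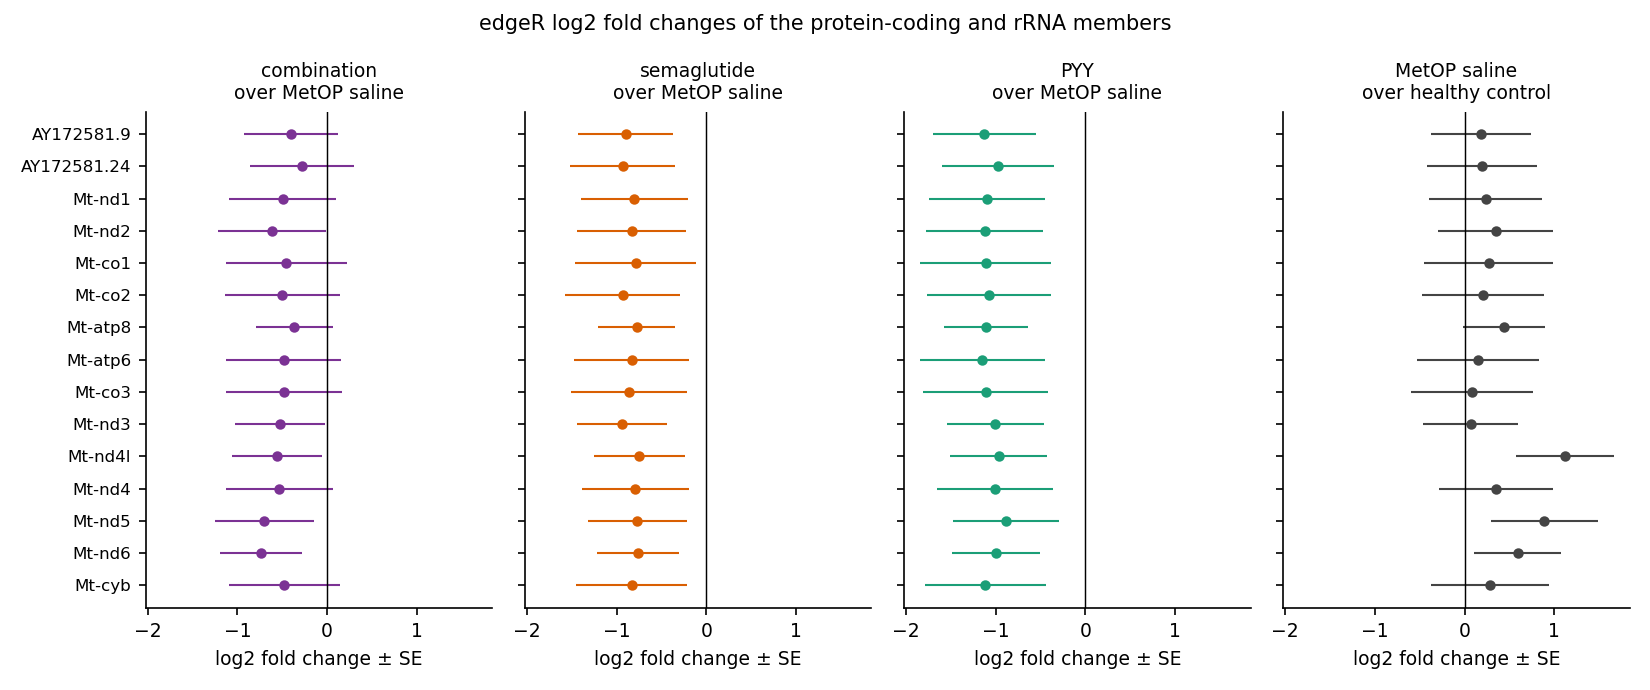
Fitted edgeR log2 fold changes ± SE of the 15 protein-coding and rRNA members in 4 comparisons, with a line at 0. With each drug all points lie left of 0, and for MetOP saline over healthy control all lie right of it with Mt-nd4l farthest out at 1.12. No gene passed the test in these 4 comparisons.

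Taken as a share of the mitochondrially encoded counts, which removes the scaling between the 2 genomes, Mt-nd4l separated the model from the healthy controls. Mt-nd4l (ENSRNOG00000031053) encodes a small membrane subunit of complex I. Its share was 0.888, 0.892, 0.839, 0.980 and 0.653% in combination, 1.09, 0.993, 0.874, 0.867 and 0.958% in semaglutide, 0.993, 1.09, 0.885 and 0.890% in PYY and 0.865, 0.941, 0.883, 0.819 and 0.935% in MetOP saline, against 0.503, 0.470, 0.552 and 0.465% in healthy control. All 19 MetOP libraries lay above all 4 healthy control libraries, with combination A320 the nearest. On the same measure, each gene as a share of the counts of its own genome, 29 of 15271 tested genes (0.19%) had all 19 MetOP libraries on one side of the healthy controls, and Mt-nd4l was the 1 member of 34 among them. It was picked out after these values were seen, so no p is given for the share itself. In an edgeR fit in which each genome was scaled on its own counts, its log2 fold change for the 4 MetOP groups over healthy control was 0.88 ± 0.41 (SE, adjusted p = 0.581), and 0.84 ± 0.47 for MetOP saline over healthy control (adjusted p = 0.847). The SEs of that fit draw on a spread estimated over all genes and can exceed that of a member's share. Mt-cyb, whose share had a coefficient of variation of 3.19%, had an SE of 0.62 for the 4 MetOP groups over healthy control. The adjusted p values of the fit thus do not measure the spread of the shares and do not settle whether these differed. For the 4 MetOP groups over healthy control, Mt-nd4l was not the member of smallest adjusted p in that fit. That was the tRNA gene AY172581.21, at 1.20 ± 0.36 (SE, edgeR adjusted p = 0.332). Over 11 comparisons that fit called 0 members. Of all genes it called 12 in PYY against healthy control, 2 in the 4 MetOP groups against healthy control, 1 in semaglutide against PYY and 0 in the other 8 comparisons.

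The ratio to its neighbour, named after its values were seen, separated the same libraries. It uses the same Mt-nd4l counts, so it is no separate support for the difference. Per length, Mt-nd4l stood at 51.6, 51.4, 57.0, 57.9 and 49.0% of Mt-nd4 in combination, 59.5, 57.5, 57.7, 54.6 and 57.7% in semaglutide, 54.4, 63.6, 53.0 and 54.6% in PYY and 52.2, 55.2, 57.8, 54.3 and 55.9% in MetOP saline. In the healthy controls it stood at 34.3, 30.0, 35.4 and 31.6%. The MetOP groups averaged 53.4 ± 3.89, 57.4 ± 1.79, 56.4 ± 4.83 and 55.1 ± 2.07%, and the healthy controls 32.8 ± 2.43% (SD). The lowest MetOP library stood at 49.0% and the highest healthy control library at 35.4%, and the 4 MetOP groups overlapped each other. The ratio of another overlapping pair, Mt-atp8 over Mt-atp6 per length, averaged 0.621 ± 0.151, 0.618 ± 0.0555, 0.609 ± 0.0824 and 0.595 ± 0.0794% in the MetOP groups. In the healthy controls it averaged 0.477 ± 0.0473% (SD). The highest healthy control library, at 0.514%, overlapped combination, PYY and MetOP saline but not semaglutide. How reads over shared bases were counted is not stated, and its part in both ratios was not tested.

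Mt-nd5 (ENSRNOG00000029971), a proton-pumping subunit of complex I, came close to the same pattern. Its share of the mitochondrially encoded counts was 3.03, 3.75, 2.65, 3.18 and 1.92% in combination, 4.02, 3.29, 2.91, 3.27 and 3.78% in semaglutide, 3.76, 3.82, 3.75 and 3.70% in PYY and 3.21, 3.56, 3.25, 2.88 and 3.32% in MetOP saline, against 2.29, 2.11, 2.02 and 2.07% in healthy control. One MetOP library, combination A320, lay below the healthy controls, and the other 18 lay above them. The PYY libraries varied least, at 3.76 ± 0.0512%, and all 4 exceeded the 5 MetOP saline libraries at 3.24 ± 0.242%. Mt-nd5 was the 1 member of 34 whose PYY and MetOP saline groups did not overlap, where 1.82% of all tested genes did not. Without PYY A216 it was again the 1 member, among 566 genes (3.71%). A count of 1 in 34 is near these shares of all genes and is not read as a trait of the members. In the own-genome fit the change of Mt-nd5 was 0.65 ± 0.53 for the 4 MetOP groups over healthy control (SE, edgeR adjusted p = 0.889). For PYY over MetOP saline it was 0.21 ± 0.61 (SE, edgeR adjusted p = 0.9998).

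Mt-co3 and Mt-atp6 lay the other way, lower in most MetOP libraries than in the healthy controls. Mt-co3 (ENSRNOG00000030700; positions 8599 to 9382), a core subunit of cytochrome c oxidase, took 13.3, 12.2, 13.6, 12.5 and 14.1% in combination, 12.1, 12.1, 13.6, 13.03 and 12.6% in semaglutide, 12.5, 13.4, 12.8 and 12.6% in PYY and 13.8, 13.4, 13.7, 13.6 and 11.7% in MetOP saline, against 14.7, 14.2, 14.04 and 15.1% in healthy control. Combination A320 was the only MetOP library inside the healthy range of Mt-co3. Mt-atp6 (ENSRNOG00000031979) took 13.3, 12.4, 13.005, 12.8 and 13.1% in combination, 12.4, 12.8, 12.99, 13.2 and 12.6% in semaglutide, 12.3, 11.9, 12.9 and 12.4% in PYY and 13.1, 12.2, 13.4, 12.9 and 12.5% in MetOP saline, against 13.3, 13.5, 13.9 and 13.9% in healthy control. One MetOP saline library, A229, lay inside the healthy control range of Mt-atp6. In the 3 drug groups no library did, though combination A248 at 13.306% was next to the lowest healthy value, 13.312%.

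Counted over the 34 tested members, groups that did not overlap were as follows, with the share among all tested genes beside each count. Combination and healthy control did not overlap for 3 members (1.43% of all genes): Mt-co1 and Mt-nd4l were higher and Mt-atp6 lower in combination. For Mt-atp6 the nearest libraries were almost level, combination A248 at 13.306% and healthy control A387 at 13.312%. Semaglutide and healthy control did not overlap for 9 members (3.77%): Mt-nd5, Mt-nd4l and the tRNA genes AY172581.7, AY172581.21, AY172581.10 and AY172581.15 were higher and Mt-co3, Mt-atp6 and Mt-nd3 lower with semaglutide. PYY and healthy control did not overlap for 6 members (9.89%): Mt-nd4, Mt-nd5, Mt-nd4l and AY172581.15 were higher and Mt-co3 and Mt-atp6 lower with PYY. MetOP saline and healthy control did not overlap for 3 members (3.3%), Mt-nd5 and Mt-nd4l higher and Mt-co3 lower in MetOP saline. These comparisons share the 4 healthy control libraries, and shares of 1 total move against each other. AY172581.15 had 717 counts over all libraries and a count in only 21 of them, so its separation lies near the counting floor. Against MetOP saline, combination (0.321% of all genes) and semaglutide (4.79%) each had 0 members without overlap.

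One library set some of these counts. Without combination A320, 3 members (Mt-co3, Mt-nd4l and Mt-nd5) separated all remaining MetOP libraries from the healthy controls, among 33 genes in all (0.216%), and 7 members separated combination from healthy control, where 2.64% of all genes did. Combination A320 is also the library with the fewest muscle marker counts. Without PYY A216 the counts were 1 member for all MetOP libraries (0.19% of all genes) and 8 for PYY against healthy control (12%). The muscle share of the other counts was 12.9 to 25.1% with semaglutide, 9.39 to 18.7% in MetOP saline and 13.8 to 22.6% in healthy control, and its part in the Mt-nd4l and other shares was not tested.

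**Figure D4:**
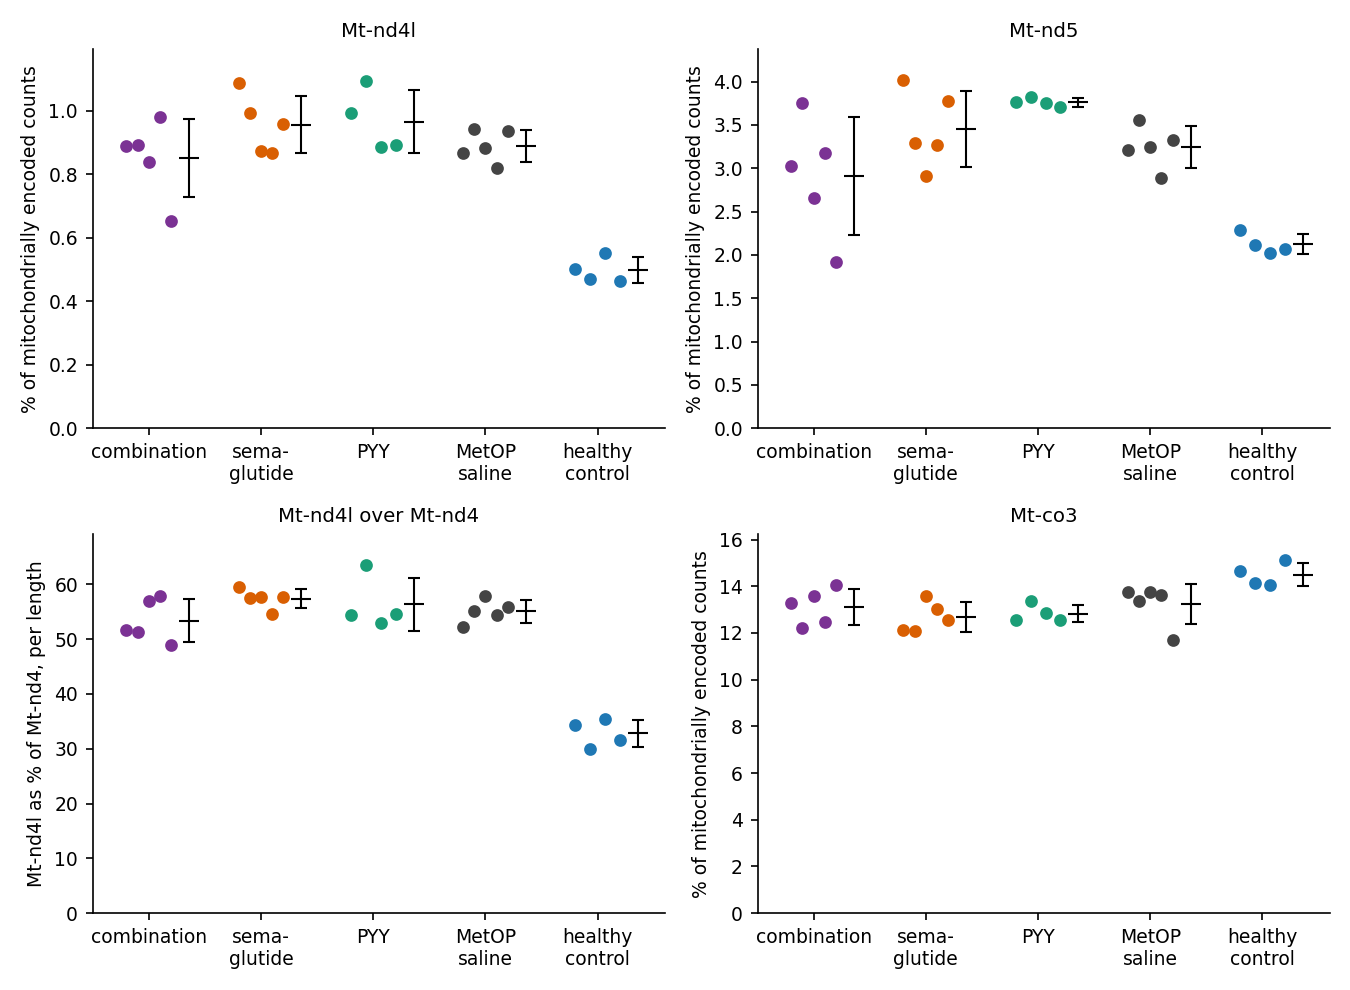
Shares of Mt-nd4l, Mt-nd5 and Mt-co3 in the mitochondrially encoded counts, and Mt-nd4l as a percentage of Mt-nd4 per length, for each library (points) with group mean ± SD (bars). Mt-nd4l in healthy control lies at 0.465 to 0.552%, below all 19 MetOP libraries, and combination A320 lies below the healthy range for Mt-nd5 and inside it for Mt-co3.

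Nuclear genes that serve the mitochondrial chromosome had no called member in any list. Fitted signs and medians are given for combination, semaglutide and PYY over MetOP saline and then MetOP saline over healthy control. The 10 genes of mitochondrial transcription had medians of 0.05, 0.42, -0.17 and 0.11, beside all-gene medians of 0.02, -0.04, -0.01 and 0.04. Tfam, which packages mitochondrial DNA and starts its transcription, had 22.6 ± 5.09 CPM in MetOP saline and 35.3 ± 4.10 CPM in healthy control (log2 fold change -0.64 ± 0.30, edgeR adjusted p = 0.751). Polrmt, the mitochondrial RNA polymerase, had 6.44 ± 1.44 CPM with semaglutide and 4.51 ± 0.83 CPM in MetOP saline (0.51 ± 0.31, edgeR adjusted p = 0.523).

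The 23 genes of mitochondrial RNA processing and stability had medians of 0.08, 0.48, -0.05 and -0.14. Elac2 cuts the 3′ ends of mitochondrial tRNAs, and Fastk has a form that stabilises ND6 mRNA in mouse and human cells. Elac2 had 10.7 ± 2.55 CPM with semaglutide and 5.86 ± 2.86 CPM in MetOP saline (0.87 ± 0.30, edgeR adjusted p = 0.389). Fastk had 36.0 ± 4.17 and 18.8 ± 3.52 CPM in the same groups (0.93 ± 0.30, edgeR adjusted p = 0.389). Both were lower in MetOP saline than in healthy control by fitted value, at -0.90 ± 0.31 for Elac2 and -0.81 ± 0.31 for Fastk (edgeR adjusted p = 0.653 and 0.692). The 14 genes of mitochondrial DNA maintenance had medians of -0.07, 0.11, -0.22 and 0.00, and the 15 regulators of mitochondrial biogenesis -0.11, 0.60, -0.24 and 0.28. The signs of the small medians hang on the scaling: with library totals alone the medians of these 4 lists were 0.25 to 0.44 for combination and 0.51 to 0.68 for PYY, and that of transcription was -0.07 for MetOP saline over healthy control.

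The nuclear subunits of the same complexes had fitted values of the opposite sign to the mitochondrially encoded ones in 3 of these 4 comparisons. In combination over MetOP saline 33 of 35 complex I subunits were positive with a median of 0.21, and in semaglutide over MetOP saline 35 of 35 with a median of 0.57, for instance Ndufs8, an iron-sulphur subunit, with 31.4 ± 4.16 CPM with semaglutide and 15.6 ± 3.22 CPM in MetOP saline (edgeR adjusted p = 0.393). In MetOP saline over healthy control 34 of 35 were negative with a median of -0.40. In PYY over MetOP saline they were negative too, 34 of 35 with a median of -0.39. The 9, 12 and 16 subunits of complexes III, IV and V had medians of 0.08, 0.21 and 0.27 for combination, 0.49, 0.52 and 0.57 for semaglutide, -0.51, -0.42 and -0.36 for PYY, and -0.43, -0.48 and -0.51 for MetOP saline over healthy control. Atp5f1a, the alpha subunit of ATP synthase, had 655 ± 127 CPM with semaglutide and 360 ± 82.4 CPM in MetOP saline (edgeR adjusted p = 0.488). None of these subunits passed the test. The signs of the PYY comparison hang on the scaling: with library totals alone the medians of complexes I, III, IV and V were 0.34, 0.21, 0.30 and 0.36, and with muscle level as a covariate 0.23, 0.07, 0.17 and 0.27. For combination they were near 0 with limma voom, from -0.10 to 0.04. Nuclear subunits took 0.832% of the other counts in PYY A216 and 0.757% in combination A320, against 1.35 to 3.38% in the other libraries. Medians of these subunits, and of the muscle markers below, are not given without PYY A216 or combination A320, and their part was not tested.

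Muscle fibre markers had the same fitted signs as the nuclear subunits. Their 26 genes had medians of 0.31 for combination, 0.85 for semaglutide and -0.57 for PYY over MetOP saline, and -0.50 for MetOP saline over healthy control, with 24, 26, 6 and 0 of 26 positive. With muscle level as a covariate the subunit medians of semaglutide over MetOP saline were 0.26, 0.20, 0.22 and 0.28 for complexes I, III, IV and V. The sign of the marker median turned under the same settings, to 0.23 for PYY over MetOP saline with library totals alone and to -0.26 for combination with voom. Summed over the 75 table rows of the nuclear subunits, of which Cox6b1, Atp5mc1 and Ndufb2 have more than 1 each, the log2 ratio of mitochondrially encoded protein-coding counts to nuclear subunit counts was 5.80 ± 0.463 with semaglutide and 7.18 ± 0.853 in MetOP saline (SD, n = 5 each; exact permutation p = 0.0159, adjusted over 70 tests 0.556). It was 6.69 ± 1.48 in combination (n = 5), 6.76 ± 1.29 with PYY (n = 4) and 6.44 ± 0.949 in healthy control (n = 4), and over the 5 groups the permutation p was 0.372 (adjusted 0.757). The exact permutation p against MetOP saline was 0.532 for combination and 0.524 for PYY, and MetOP saline against healthy control gave 0.286 (adjusted 0.891 each).

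Across libraries the mitochondrially encoded share moved with the counts of muscle and blood genes. Over 23 libraries it was lower where muscle fibre markers took more of the other counts (Pearson r = -0.524, Spearman rho = -0.552; permutation tests adjusted over 4 relations, p = 0.0216 and 0.0146). It was higher where the 14 haemoglobin genes took more of them (r = 0.607, rho = 0.666, permutation p adjusted 0.00856 and 0.003). Within groups r was -0.583 for muscle (permutation p adjusted 0.0154) and 0.523 for haemoglobin (0.0217). Without the 2 libraries farthest from the median of the marker, r was -0.563 without combination A320 and PYY A216, and 0.573 without MetOP saline A229 and combination A320 (permutation p adjusted 0.0114 each). Both relations held in these reduced sets.

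The share also went with the total count of the library (r = 0.437, rho = 0.487, permutation p adjusted 0.0485 and 0.026), but within groups r was 0.394 and no longer passed (permutation p adjusted 0.0771). Without combination A253 and PYY A220, r was 0.561 (permutation p adjusted 0.0114). The rRNA share of the mitochondrially encoded counts showed no relation that passed with their share of all counts (r = 0.323, rho = 0.312, permutation p adjusted 0.132 and 0.146; r = 0.308 without combination A251 and MetOP saline A229).

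By group, muscle markers took a median of 18.1% of the other counts in combination (1.29 to 26.3%), 22.1% with semaglutide (12.9 to 25.1%), 11.9% with PYY (2.45 to 14.1%), 12.6% in MetOP saline (9.39 to 18.7%) and 15.3% in healthy control (13.8 to 22.6%), and the ranges of every pair of groups overlapped. Haemoglobin genes took medians of 2.83, 1.82, 3.17, 5.26 and 6.41% in the same order of groups. All 26 muscle markers and all 13 erythroid markers had counts in every group. Of the other cell-type lists, Ltf was at 0 in all groups but combination, Ucp1 in all but MetOP saline, Lep in healthy control and Ocstamp in combination. Their fitted median log2 fold changes, with 0 genes called, are given for combination, semaglutide and PYY over MetOP saline and for MetOP saline over healthy control, in that order. Osteoblast and osteocyte markers (12 genes) had -1.13, -2.23, 0.05 and 0.32, and osteoclast markers (10 genes) -1.52, -1.31, 0.11 and 0.85. Adipocyte markers (7 tested) had -0.96, -0.74, -0.32 and 0.92. Erythroid markers (13 genes) had -0.29, -1.57, -0.80 and 0.14, and neutrophil markers (13 tested) 0.30, -0.51, -1.30 and -0.17. The 5 medians of semaglutide over MetOP saline were thus all negative, and stayed so in the 7 other settings, at -1.96, -1.24, -0.34, -1.19 and -0.23 with library totals alone. Signs turned elsewhere. With library totals alone the adipocyte median of PYY was 0.54, and the erythroid medians of combination and of MetOP saline over healthy control were 0.07 and -0.08. With voom the osteoblast and osteoclast medians of PYY were -0.48 and -0.68, and the neutrophil medians of combination and of MetOP saline over healthy control were -0.83 and 0.08. With muscle level as a covariate the osteoblast and osteoclast medians of PYY were -1.27 and -1.31, the neutrophil median of combination was -0.47 and the osteoblast median of MetOP saline over healthy control -0.07. The part of these cell types, of muscle and blood and of library size in the mitochondrially encoded share was not tested.

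**Figure D5:**
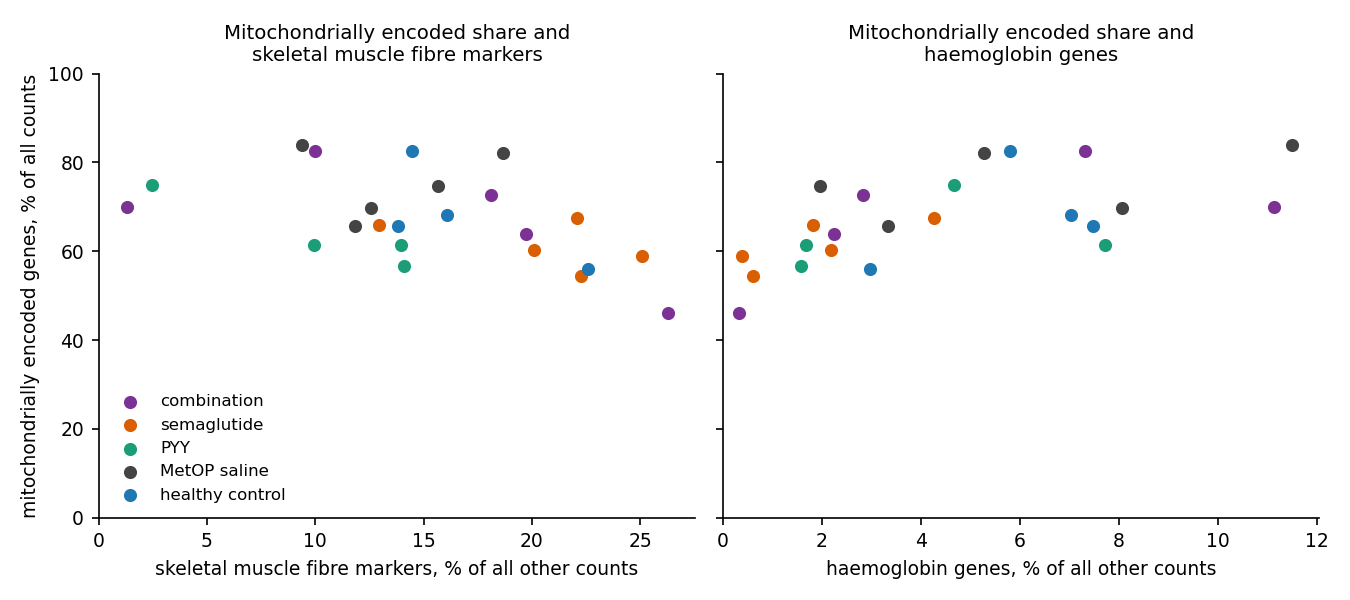
Mitochondrially encoded share of all counts against the share of the other counts taken by 26 skeletal muscle fibre markers (left) and 14 haemoglobin genes (right), 1 point per library, coloured by group. Points run downward to the right for muscle (r = -0.524) and upward for haemoglobin (r = 0.607), with combination A320 and PYY A216 at the far left of the muscle plot.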

How the data were processed

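The authors deposited a table of raw read counts by Ensembl gene, with 1 column for each of 23 libraries and each gene's position, length and biotype. FPKM values deposited by the authors were not used. Per the submitters' processing notes the genome build was mRatBN7.2 and the tools included DESeq2 1.42.0. The aligner, the counter and the use of strand are not stated. No mitochondrial sequence was used.

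The edgeR 4.0.16 quasi-likelihood test (R 4.3.3; TMM, filterByExpr by group, robust) fitted all libraries with 1 mean per group (18 residual degrees of freedom, 15271 genes, common biological coefficient of variation 69.9%) and was tested on simulated data. DESeq2 1.42.0, limma voom 3.58.1, other scalings, a muscle covariate and leaving out each library were alternatives. Shares used exact permutation tests between pairs and 100000 resamples otherwise (scipy 1.17.1), adjusted by Benjamini-Hochberg. No molecular identifiers are described, so floors of 3 counts cover counting error only. As a check for duplicates only, counts in each of the 42 pairs of libraries within groups differed beyond sampling noise (lowest chi-square per degree of freedom 45.25), and no library was taken for a second deposit of another.

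Members, lists and tests were chosen with earlier results of these data known. Named by rule were the protein-coding or rRNA members of highest and lowest fold change per comparison, and the 2 list genes of smallest p per comparison, of which some are given. Of 226 list entries 216 were found under their symbol, 1 through a former symbol and 9 not at all, and a symbol on several rows was read at the first tested. The own-genome fit, the ratios of neighbouring members and the counts of groups without overlap were added after the data were seen.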

Additional observations from a re-analysis of the deposited data

Results flagged for a closer look

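Among 60 groups of values, 5 held a library far from the rest of its group by Dixon's 95% limit, where chance flags about 5%. The rRNA share of the mitochondrially encoded counts was 2.39% in semaglutide A241, and the next highest semaglutide library had 1.80%. The tRNA share was 0.485% in MetOP saline A265, with 0.295% next, and 0.489% in healthy control A389, with 0.340% next. The minus-strand share, which AY172581.19 and Mt-nd6 nearly fill, was 0.954% in MetOP saline A265, with 0.642% next. The share of complex IV in the mitochondrially encoded protein-coding counts was 46.9% in PYY A215, the lowest of its group, with 49.8% next.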

How the results depend on the processing

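Over library, scaling, filter and test alternatives, the 0 called members stayed 0 in all 247 alternatives tried, and 464 of 494 alternative fold changes of named members kept their sign. Calls over all genes did change: DESeq2 called 47, 89, 5 and 2 genes for MetOP saline against healthy control and for semaglutide, PYY and combination against MetOP saline, and 487 for semaglutide against PYY, where library totals alone gave 47 and leaving out PYY A220, combination A251 or combination A320 gave 1021, 164 and 48, against 1. Of the 30 reversals the cause was not tested. Mt-nd3 in MetOP saline over healthy control was -0.034 with library totals alone, -0.18 with each genome on its own counts and -0.10 to 0.52 without single libraries. AY172581.24 was 0.027, 0.16 and -0.89 to 0.019 in combination over MetOP saline. In semaglutide over PYY it was -0.29, -0.24 and -0.25 to 0.24, and -0.0101 with DESeq2 or its size factors. Mt-nd6 in combination over semaglutide was -0.15, -0.22 and -0.22 to 0.19, and -0.016 with voom. Mt-nd5 in combination over PYY was -0.33, -0.37 and -0.083 to 0.37, and its interaction -0.12 with library totals. With each genome on its own counts, Mt-nd4l in semaglutide over MetOP saline was 0.11 and Mt-nd5 in PYY over MetOP saline 0.21. The share of all counts kept its sign in 99 of 101 alternatives. Without single libraries semaglutide minus PYY ran from -4.55 to 1.49 points and combination minus PYY from -0.464 to 8.65. Without single libraries the adjusted p of the complex V share ran from 0.0073 to 0.1408. The relation with total count was r = 0.394 within groups. Members without overlap numbered 3 (all MetOP) and 7 (combination) without combination A320, against 1 and 3 with it. No paired analysis was possible because the groups share no replicate numbers. Totals of 19.25 to 40.65 M leave the plus-strand tRNA genes near the counting floor.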
